A study of Arabidopsis thaliana with 2 samples.

Results

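Transcripts of 3 Arabidopsis thaliana genes of the 26S proteasome were followed on 2 oligonucleotide arrays. The genes are AT4G24820 on chromosome 4, AT2G32730 on chromosome 2 and AT1G67250 on chromosome 1. They were taken by locus through the platform's annotation, which assigns 1 probe set to each of them, so 3 of the 8297 probe sets on the array were described. A probe set is a group of short oligonucleotides read together as 1 signal. The genes were chosen by locus with their NOT and WDC signals and the ratio of these already known, so these values are a description with no test.

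Both arrays carried RNA from rosette leaves of the accession Col-0. Seeds were stratified at 4 °C for 1 week, and plants grew on compost at 22 °C with lighting of 24 h to growth stage 3.5. The series concerns the action of nitric oxide, a gaseous signalling molecule of plants. One array belongs to the group coded NOT and the other to the group coded WDC. Neither code is explained in the labels, which name no agent, dose or time for either and mention a control without tying it to a code, so every ratio is given as NOT over WDC and neither array is called treated. Per the treatment label of the NOT sample, a sample is a pool of 4 experiments, each with the RNA of about 8 leaves. The tissue is labelled as rosette leaves, although the extraction text mentions seedlings. Pooling leaves 1 value per gene and group, so no difference has a replicate check, no p-value can be given, and precision is limited by the number of arrays. In a leaf, a change in the share of a cell type and a change in the RNA per cell cannot be told apart.

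The 26S proteasome degrades proteins that have been marked with chains of ubiquitin. Its barrel-shaped core particle holds the protease sites, and a regulatory particle at the end of the barrel recognises, unfolds and feeds in the marked proteins. Assembly of the core particle needs dedicated chaperones, and in plants as in yeast the genes of the complex are known to be induced together when proteasome activity is limiting. AT4G24820 encodes RPN7, a subunit of the lid of the regulatory particle. AT2G32730 encodes RPN2A, a large scaffold subunit in the base of the regulatory particle, for which Arabidopsis has a second gene, RPN2B (AT1G04810). AT1G67250 encodes a factor of the UMP1 type, here written UMP1A, and UMP1 is known from yeast as a chaperone of core particle assembly that is itself degraded when the core is complete. These names are background, since the gene table used here lists the 3 loci without a symbol.

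Signals of RPN7 and UMP1A were lower on the NOT array than on the WDC array, and the signal of RPN2A was slightly higher. For RPN7 the NOT array read 281.8 and the WDC array 515.4. The NOT signal was therefore 54.7% of the WDC signal, a log2 ratio of -0.87 or a 1.83-fold difference. For UMP1A the readings were 237.6 in NOT and 400.9 in WDC. Its NOT signal was 59.3% of the WDC signal, a log2 ratio of -0.75 or a 1.69-fold difference. RPN2A read 172.6 in NOT and 131.4 in WDC, with the order of the arrays turned round. Its NOT signal was 131.4% of the WDC signal, a log2 ratio of 0.39 or a 1.31-fold difference. The lid subunit and the assembly factor thus shared a direction that the scaffold subunit of the base did not.

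**Figure D1:**
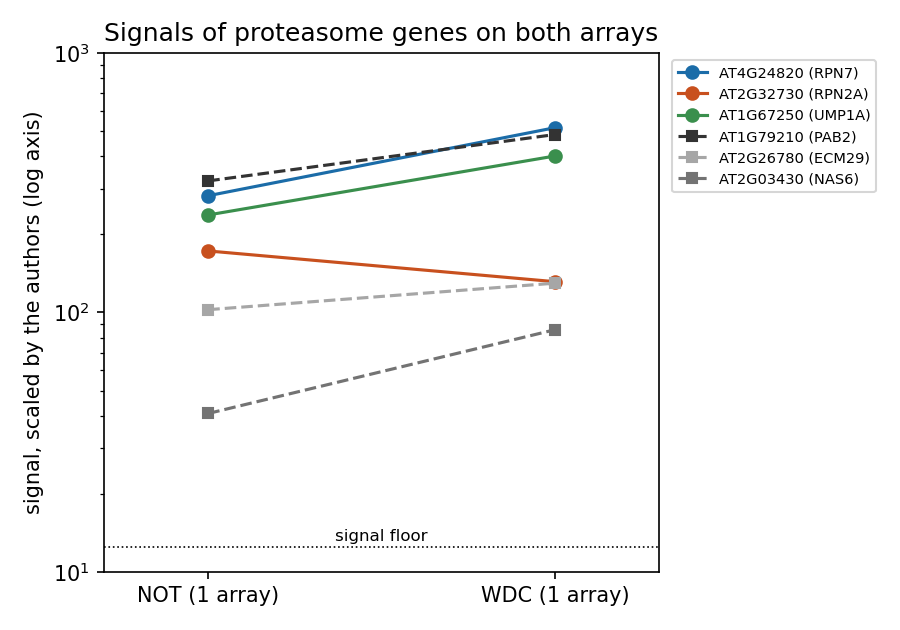
Signal on the NOT and the WDC array (log axis, scaled by the authors) for the 3 genes described and, as dashed lines, for the 3 other measured genes of proteasome subunits, assembly or accessory factors, with the signal floor of 12.5 dotted. Each point is 1 array without error, and only the slope of a line can be read, since signals of different probe sets are not on a common scale; RPN2A is the line that is higher in NOT.

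All 3 signals were well clear of the signal floor, set at 12.5, the 40th percentile of all values of non-control probe sets. RPN7 lay at 22.5 times the floor in NOT and 41.2 times in WDC, UMP1A at 19.0 and 32.1 times, and RPN2A at 13.8 and 10.5 times. None of the 3 probe sets carries a mark for sequence shared with other genes. No gene had a second probe set here, so the ratios rest on 1 probe set each. A yardstick for probe noise came from 93 other genes with more than 1 measured probe set, whose log2 ratios scattered within a gene with an SD of 0.20. This covers neither plants nor arrays, and probe sets marked for shared sequence were not left out of it. The SD describes 1 probe set about its gene's mean, and a difference between 2 probe sets scatters more widely. The log2 ratios of RPN7 and UMP1A differed from each other by 0.12, less than that SD. The ratio of RPN2A was 1.26 above that of RPN7, a 2.40-fold difference between their ratios, and UMP1A lay 1.15 below RPN2A, a 2.22-fold difference.

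Against the whole array, RPN7 and UMP1A stood in the lower tail and RPN2A in the upper part of the bulk. A log2 ratio was available for 4753 probe sets above the floor on both arrays, with a median of 0.00 and quartiles of -0.24 and 0.22. Of the other 4752, 198 (4.17%) had a ratio at or below that of RPN7 and 262 (5.51%) one at or below that of UMP1A. For RPN2A 611 (12.9%) lay above. By a 1.5-fold rule, 2 of the 3 genes were lower in NOT and none higher, where 8.73% of all measured probe sets were lower and 5.87% higher. As the genes were chosen with these ratios known, nothing is read from that count. None of the 3 passed a 2-fold rule, which 3.32% of all measured probe sets did as lower and 1.41% as higher.

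**Figure D2:**
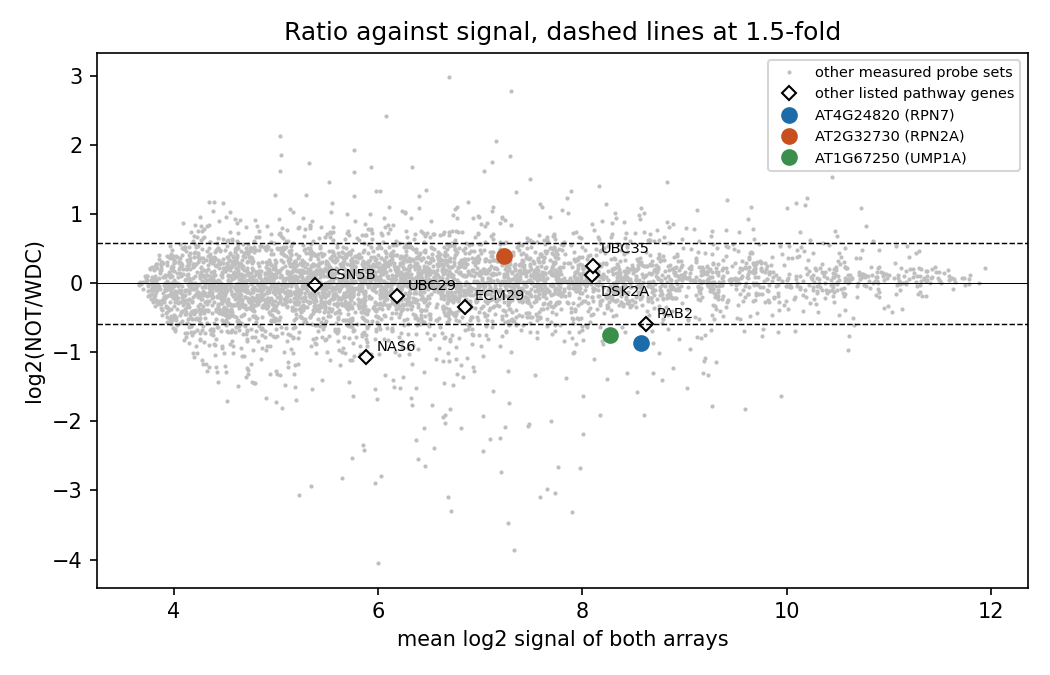
Log2 ratio of NOT over WDC (vertical) against the mean log2 signal of both arrays (horizontal) for every measured probe set in grey, with the 3 genes as filled circles and the 7 other measured pathway genes as open diamonds. RPN7 and UMP1A lie below the dashed 1.5-fold line, together with NAS6 and, just past it, PAB2; RPN2A lies between the lines.

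Ratios scatter more widely at some signals than at others, so each gene was also set against the 200 measured probe sets nearest to it in mean log2 signal. For RPN7 these had mean signals from 329.5 to 440.5 and a median log2 ratio of 0.04, with quartiles of -0.15 and 0.23. Of them 7 had a ratio at or below that of RPN7, which put it at percentile 3.5. For UMP1A the mean signals ran from 269.4 to 353.5 and the median log2 ratio was 0.04, with quartiles of -0.18 and 0.22. Here 6 of the 200 lay at or below, percentile 3.0. Both genes were thus near the low end of probe sets as bright as themselves. Neither was outside the central 95% of these 200, whose lower limits were log2 ratios of -1.02 around RPN7 and -0.83 around UMP1A. For RPN7 this depends on the width, since among the nearest 100 probe sets it stood at percentile 2.0, outside the central 95%.

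For RPN2A the 200 nearest probe sets had mean signals from 138.0 to 164.6 and a median log2 ratio of -0.00, with quartiles of -0.23 and 0.28. RPN2A lay above 166 of them, percentile 83.0, which is inside the range of probe sets as bright as itself. The scatter was wider at this signal, with an SD of 0.70 against 0.41 around both RPN7 and UMP1A. Of the probe sets near RPN7, 6.0% were at least 1.5-fold lower in NOT and 8.5% at least 1.5-fold higher. Near UMP1A the shares were 4.5% and 7.5%, and near RPN2A 8.0% and 8.5%.

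**Figure D3:**
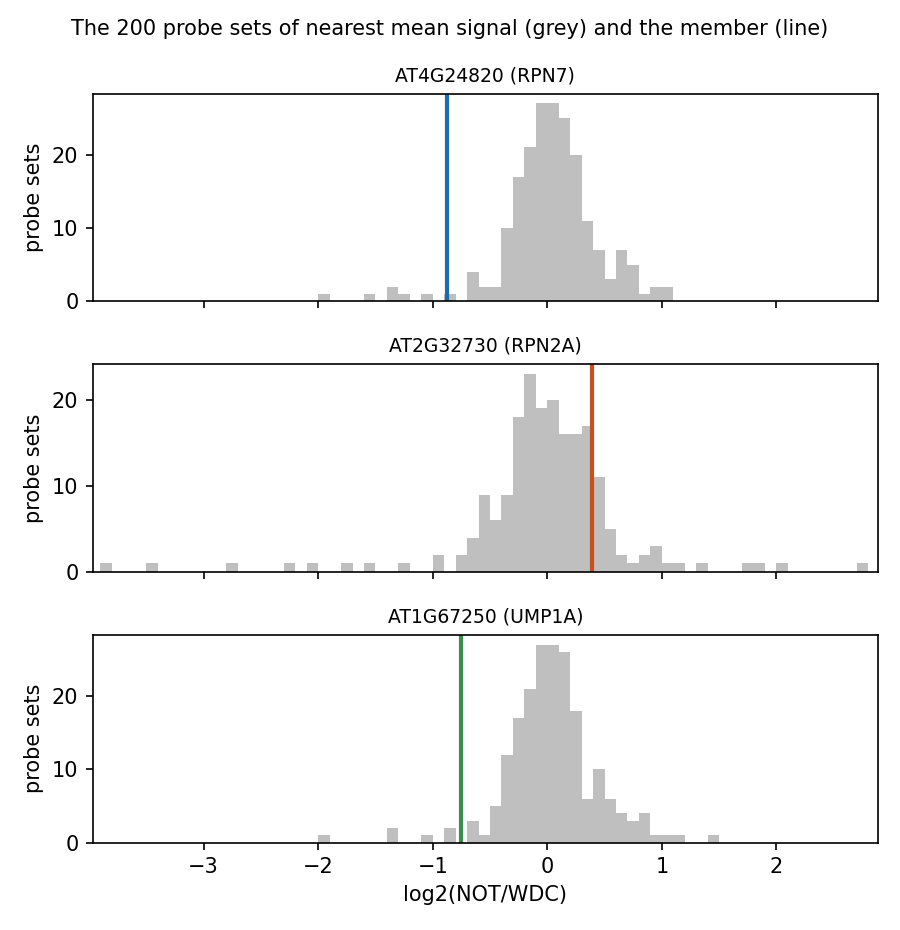
Number of probe sets (vertical) by log2 ratio of NOT over WDC (horizontal) among the 200 nearest in mean signal to RPN7 (top), RPN2A (middle) and UMP1A (bottom), with the gene's own ratio as a coloured line. The lines for RPN7 and UMP1A stand left of nearly all of the grey bars, at percentiles 3.5 and 3.0, and that for RPN2A on the right shoulder at percentile 83.0.

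Few other parts of the complex could be followed. Of 54 other listed genes of proteasome subunits, 1 had a named probe set in the annotation used here, as did 2 of 10 listed assembly and accessory factors. The paralogues RPN2B and UMP1B (AT5G38650), the other lid and base subunits and the ATPases of the regulatory particle were not among them and are not analysed here. The measured subunit was PAB2 (AT1G79210), an alpha subunit of the core particle. Its signal was 321.4 in NOT and 485.0 in WDC. With a log2 ratio of -0.59 PAB2 was 1.51-fold lower in NOT, just past the 1.5-fold rule. It fell short of that rule with quantile normalization (-0.57), with scaling to spiked-in controls (-0.45) and, by a small margin, with an offset added to both signals (-0.58).

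Among assembly and accessory factors, AT2G03430 had the lowest ratio. It is an ankyrin repeat protein related to NAS6, known from yeast as a chaperone of regulatory particle assembly. Its signals were 40.8 in NOT and 85.8 in WDC, which is 2.1-fold lower in NOT (log2 ratio -1.07). The NOT signal stood at 3.26 times the floor, closer to it than those of the 3 genes above. AT2G26780, related to ECM29, a proteasome-binding protein known from yeast, read 102.5 in NOT and 129.7 in WDC. Its log2 ratio was -0.34, and its probe set is one of those marked as shared with other sequences. Of these 3 further subunits and factors, 2 passed the 1.5-fold rule as lower in NOT, beside 8.73% of all measured probe sets, and PAB2 is the one that lost the call under the 3 settings above.

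Of the listed genes of ubiquitin handling, or of the related COP9 signalosome, 4 were measured and all lay within 1.5-fold. DSK2A (AT2G17190), a shuttle protein that carries ubiquitin-marked proteins to the proteasome, had a log2 ratio of 0.12, with 284.8 in NOT and 262.4 in WDC. The ubiquitin-conjugating enzymes UBC35 (AT1G78870) and UBC29 (AT2G16740) stood at 0.26 and -0.18. CSN5B (AT1G71230), a subunit of the COP9 signalosome, a complex built on a plan like that of the proteasome lid, stood at -0.03, with 41.4 in NOT and 42.3 in WDC. Over all 114 listed pathway genes other than the 3 described, 7 were measured, and 2 of them (PAB2 and AT2G03430) were at least 1.5-fold lower in NOT and none at least 1.5-fold higher, where the shares over all measured probe sets were 8.73% and 5.87%. Their median log2 ratio was -0.18, beside 0.00 over all measured probe sets. These lists were written with results of the same arrays known, and 7 genes are too few to describe the pathway.

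Transcripts of ubiquitin itself were read by 3 control probe sets of the array, placed along the transcript and open to its gene family. The probe set at the 3' end read 3442 in NOT and 3100 in WDC (log2 ratio 0.15). The middle one gave 2470 and 1659, a log2 ratio of 0.57, and the one at the 5' end 2381 and 2741, a log2 ratio of -0.20. The 3 disagreed in direction, so no direction is given for ubiquitin. The 3 GAPDH control probe sets had log2 ratios from -0.60 to -0.36 and the actin one -0.05. For the 9 spiked-in hybridisation controls the log2 ratios ran from -0.28 to -0.03 around a median of -0.14, and scaling to them raises every ratio by that amount. With it RPN7 stood at -0.73, UMP1A at -0.61 and RPN2A at 0.54, beside a median of 0.14 over all measured probe sets. The part of RNA quality and hybridisation in the ratios of the 3 genes was not tested.

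**Figure D4:**
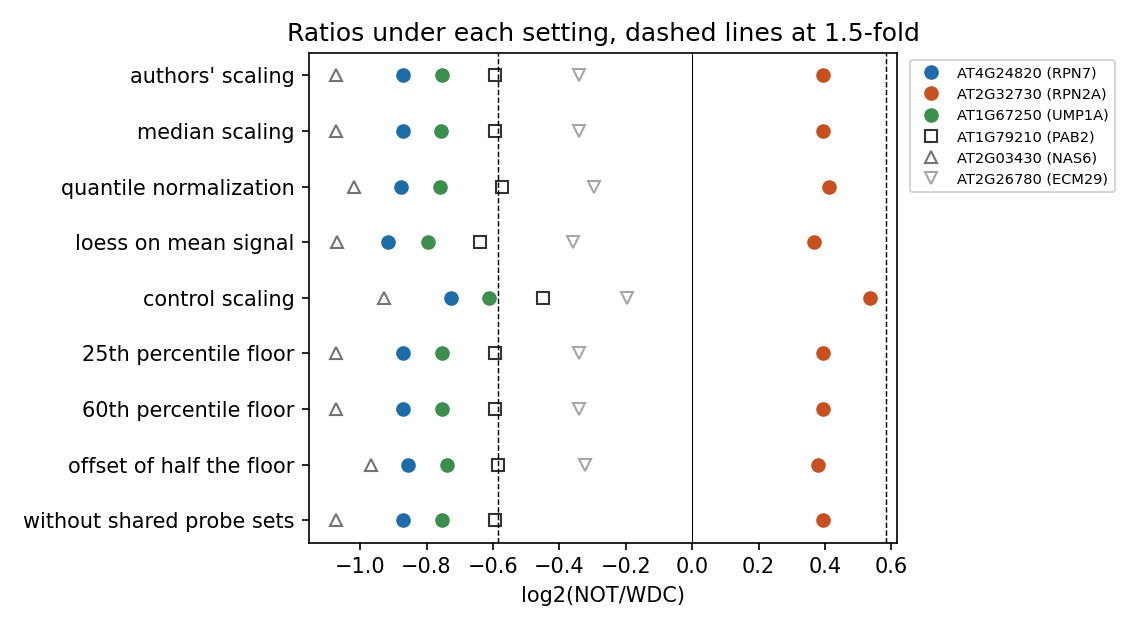
Log2 ratio of NOT over WDC (horizontal) of the 3 genes (filled) and of PAB2, AT2G03430 (NAS6) and AT2G26780 (ECM29, open) under the authors' scaling and 8 other settings (vertical). RPN7 and UMP1A stay left of the dashed 1.5-fold line in each row and RPN2A stays between 0.37 and 0.54, while PAB2 crosses the line; ECM29 has no point without shared probe sets.

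Genes with the most similar pair of signals were found by distance, on the log2 scale over the 2 arrays, among 1934 genes with a named and measured probe set. Nearest to RPN7 was PAB2, at a distance of 0.21, followed by AT4G15770 at 0.31 and the chaperone gene Hsp70-2 (AT5G02490) at 0.36. Hsp70-2, on this probe set, which is marked for shared sequence, had a log2 ratio of -1.30. Nearest to UMP1A were AT4G15770 at 0.19, the pyruvate decarboxylase gene PDC2 at 0.21 and the zinc finger gene STZ at 0.24, with log2 ratios of -0.63, -0.47 and -0.44. AT4G15770, with 269.6 in NOT and 417.4 in WDC, was thus among the nearest for both. Nearest to RPN2A were AT1G62020, a coatomer subunit, at 0.04, the glucosyltransferase gene UGT85A2 at 0.05 and the ATP sulfurylase gene APS4 at 0.06. Their log2 ratios were 0.41, 0.40 and 0.47. The probe sets of STZ and APS4 are marked for shared sequence too. These are the nearest of the genes named here and no closer than that. The ratios of PAB2 (-0.59), AT4G15770 and Hsp70-2 all differed from that of RPN7 (-0.87) by more than the within-gene SD of 0.20. So did those of PDC2 and STZ from that of UMP1A. As that SD is for 1 probe set, a gap just past it is not set apart from probe noise. The distance rests on 2 arrays and on signals of different probe sets, which are not on a common scale.

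Leaf genes were read as a description of the tissue. They could not check the label, since genes of photosynthesis do not tell rosette leaves from the seedlings of the extraction text. Of 23 listed genes of photosynthesis, 5 had a named probe set, and all 5 were measured on both arrays, with signals from 304.1 to 3135 and log2 ratios from -0.30 to 0.10. None of 13 listed markers of root, flower and seed had a named probe set, so the share of other tissues was not assessed.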

How the data were processed

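The deposited file holds a linear signal intensity for every probe set, from arrays of 1 colour (biotin, per the labels). Equal trimmed means (100.1 on each array, with 2% cut from either end) show that the authors had scaled the intensities before deposit. How probes were summarised is not given in the sources. The average scanner background was 75.02 (NOT) and 76.78 (WDC), per the labels.

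Genes were named through the platform's annotation and RefSeq's TAIR10.1 gene table, from which names and the order of genes were taken. Of 8247 non-control probe sets, 3794 named 1 gene and 4383 had no name here. Log2 ratios were taken above a floor at the 40th percentile on both arrays, without an offset. Computing used Python 3.11.15, statsmodels 0.14.6 for loess (span 0.4), numpy 2.4.6, scipy 1.17.1, pandas 2.3.3 and matplotlib 3.10.9. Counting by the 2-fold rule was tested on simulated data with less scatter than that around the 3 genes. That test did not cover counts by the 1.5-fold rule. Where a gene had several probe sets, the brightest was used.

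The 3 genes and the pathway lists were chosen with earlier results of these data known. Named genes were the 3, every measured gene of the lists, and the 3 nearest genes to each. A search of promoters for a motif was planned and not run, since no sequence was used here. Alternatives were 4 other scalings, 2 other floors, an offset, leaving out shared probe sets, 100 or 500 neighbours, the mean over probe sets and a 2-fold rule.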

Additional observations from a re-analysis of the deposited data

How the results depend on the processing

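Across 8 other settings of scaling, floor, offset and shared probe sets, the log2 ratio of RPN7 ranged from -0.92 to -0.73, that of UMP1A from -0.80 to -0.61 and that of RPN2A from 0.37 to 0.54. RPN7 and UMP1A passed the 1.5-fold rule as lower in all 8 and RPN2A passed it in none. Of all 4753 measured probe sets, 415 passed as lower and 279 as higher under the authors' scaling. These counts were 416 and 278 with median scaling, 351 and 349 with quantile normalization, and 402 and 275 with loess. Control scaling gave 280 and 504, and the offset 336 and 230. At the 25th percentile floor 625 and 414 of 5892 passed, and at the 60th 211 and 182 of 3113. Without shared probe sets 329 and 194 of 3561 passed. Other floors and leaving out shared probe sets could not change the ratios of the 3 genes, since they leave signals as they are. With 2 further widths of the neighbourhood, the percentile among probe sets of similar signal ranged from 2.0 to 3.5 for RPN7, from 3.0 to 4.6 for UMP1A and from 83.0 to 86.5 for RPN2A. Median scaling and control scaling could not change these percentiles, since they shift every ratio alike, and the other floors left them as they were. The number of other pathway genes at least 1.5-fold lower in NOT went from 2 to 1 with quantile normalization, with control scaling and with the offset, which in each case left out PAB2, and to 1 by construction with the 2-fold rule, and 0 were higher throughout. Over all measured probe sets, calls as lower also fell with quantile normalization, control scaling and the offset, to the counts given above. AT2G03430 stayed 2-fold lower under 7 of 9 settings and fell short with control scaling (-0.93) and the offset (-0.97). Among those 7, the other floors, leaving out shared probe sets and the mean over probe sets could not change its ratio. The rest were median scaling (-1.07), loess (-1.07) and quantile normalization (-1.02). Under the authors' scaling 3.32% of all measured probe sets were at least 2-fold lower, and this share is not given for the other settings. No paired analysis was possible because each group holds 1 array, and for that reason no replicate could be left out. Signal over background limits values near the floor, and 1 probe set per gene limits the 3 genes.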

Other observations

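A further 9 genes of ubiquitin handling were picked by symbol after the files had been opened and before their values were read. Of these, 4 were measured on both arrays and none passed the 1.5-fold rule, which 8.73% of all measured probe sets passed as lower in NOT and 5.87% as higher. UBP16 (AT4G24560), a ubiquitin-specific protease, came closest, with 38.7 in NOT and 25.9 in WDC, which is 1.49-fold higher in NOT (log2 ratio 0.58). It passed the rule with control scaling (0.72), quantile normalization (0.67) and loess (0.61). In those settings 504, 349 and 275 of 4753 measured probe sets passed as higher, against 279 under the authors' scaling. None of the 9 was measured with the 60th percentile floor, which lies at 40.1. With the 25th percentile floor, which lies at 4.3, UBP19 (AT2G24640) and ASK20 (AT2G45950) were measured too. UBP19, with 4.6 in NOT and 8.0 in WDC, passed the rule as lower (-0.80), with its NOT signal close to that floor. ASK20 did not pass it (-0.32). At that floor 625 of 5892 measured probe sets passed as lower and 414 as higher. UBP18 (AT4G31670) and UBC16 (AT1G75440) stood at -0.18 and -0.23. ASK18 (AT1G10230), an adaptor of the SKP1 type in ubiquitin ligases, stood at -0.39. Signals of the other 5 lay under the floor on at least 1 array, from 0.3 to 11.3 in NOT and from 0.4 to 14.1 in WDC.

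Of the 3 protein-coding genes on either side of each of the 3 proteasome genes, 3 were measured. Next to RPN7 these were AT4G24830 at a log2 ratio of -0.42 and, 2 places away, AT4G24805 at -0.33, and near RPN2A, 3 places away, AT2G32760 at -0.11. All 3 lay within 1.5-fold. Of all measured probe sets, 8.73% were at least 1.5-fold lower in NOT and 5.87% higher, so most lay within it too. No neighbour of UMP1A was measured.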
